A study of Mus musculus with 6 samples.

Results

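Caveolae are small cup-shaped invaginations of the cell surface, built from caveolins and cavins, and fat cells carry very many of them. Their mRNAs were examined here as a set of 10 genes, the 3 caveolins (Cav1, Cav2, Cav3), the 4 cavins (Cavin1, Cavin2, Cavin3, Cavin4) and 3 proteins of the caveolar neck (Ehd2, Ehd3, Pacsin2). The genes were chosen by name, with earlier results of these data known. All 10 were found among 19937 genes measured, each by 1 probe set. In older lists Cavin1 is Ptrf, Cavin2 is Sdpr, Cavin3 is Prkcdbp and Cavin4 is Murc. Caveolins are hairpin proteins that insert into the inner leaflet of the membrane and oligomerise. Cavins are coiled-coil proteins that assemble on the caveolin-rich membrane as a coat, with cavin-1 at its core, and the EHD ATPases and pacsin-2 bind at the neck. Cav3 and Cavin4 are known as the forms of striated muscle.

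Adipose tissue RNA of 3 WT and 3 cavin-3 KO littermate mice was hybridised to 6 Affymetrix Mouse Gene 1.0 ST arrays, 1 array a mouse. All mice were 10 weeks old, ate standard chow and were fasted for 6 hours. The KO mice carried the targeted allele in every cell, with the whole gene replaced by a lacZ/neo cassette. They descended from 1 C57BL/6N embryonic stem cell clone, and the fat depot is not named in the labels. The deposited RMA intensities (background-corrected, quantile-normalized and summarised by probe set) were taken to log2, so that a difference of 1 is a doubling. Precision is limited by the number of arrays.

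The arrays also differed within each genotype. The RNA was that of fat on all 6 arrays, where the mean log2 signal of 8 adipocyte genes such as Adipoq and Plin1 lay between 11.91 and 12.12. Xist, the RNA of the inactive X chromosome, had a log2 signal of 11.14 on the array of WT replicate 2 and of 11.34 on that of KO replicate 3, against 3.70 to 6.30 on the other 4 arrays. The Y-linked gene Uty had 3.36 and 3.21 on the same pair of arrays, and at 7.89 to 8.14 on the others. The methods of the paper describe male animals only, so this pair goes against them. The same pair also had the highest mean signal of 12 skeletal muscle genes (8.52 and 8.58, against 5.67 to 6.60) and of 4 brown adipocyte genes (6.71 and 6.78, against 4.61 to 4.81). Smooth muscle genes, 7 in all, averaged 10.76 for WT replicate 1, 10.61 for KO replicate 2 and 8.16 to 9.54 on the rest. By group mean all 7 were lower in KO, with a median log2 difference of -0.36. Endothelial genes, 8 in all, ran from 9.43 to 9.76 in WT and from 9.58 to 9.79 in KO. By group mean 7 of these were higher and 1 lower in KO, with a median log2 difference of 0.07. None of 58 measured marker genes of 9 cell type and sex lists passed an adjusted p of 0.05 between the genotypes in limma, and 0 had an unadjusted p under 0.05. The part of these differences in the caveolar results was not tested. The log2 differences of the 10 genes are given with and without the pair, and the further genes that act with caveolae over all 6 arrays only. In bulk tissue, fewer cells of a type and less RNA per cell cannot be told apart.

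Most of the caveolar genes were among the strongest signals of the fat. Cav1, the principal caveolin of adipocytes, had a log2 signal of 12.13, 12.18 and 12.23 on the 3 WT arrays, above 99.8% of the genes of each array. Ehd2, an ATPase that holds caveolae at the surface, had 11.45, 11.48 and 11.67. Cavin1 had 11.00, 11.03 and 11.17, and Cav2, which forms hetero-oligomers with Cav1, had 10.99, 10.91 and 11.16. The WT ranges of Cavin1 and Cav2 overlapped, and their signals differed by 0.05 on average. Cavin3, which was first described as a protein that binds protein kinase C delta, had 10.05, 10.90 and 10.45 in WT. Cavin2, the serum deprivation response protein, had 9.86, 10.20 and 10.05. The WT ranges of Cavin3 and Cavin2 overlapped as well. Pacsin2, an F-BAR protein that bends membranes, had 9.10, 9.22 and 9.25, and Ehd3, a paralog of Ehd2 that is known mainly from endosomal traffic, had 7.21, 8.0 and 7.79.

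The striated muscle forms were at the bottom of this order. Cav3 had 5.23, 5.45 and 5.39 in WT, and Cavin4 had 5.13, 5.09 and 5.17. Both lay below the median of all probe sets on each of the 6 arrays, whereas the other 8 genes lay above it on each. Whether these dim signals exceed the background of the arrays could not be judged without the scanner files. Probe sets differ in how well they bind, so the order is one of signals and does not count transcripts.

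**Figure D1:**
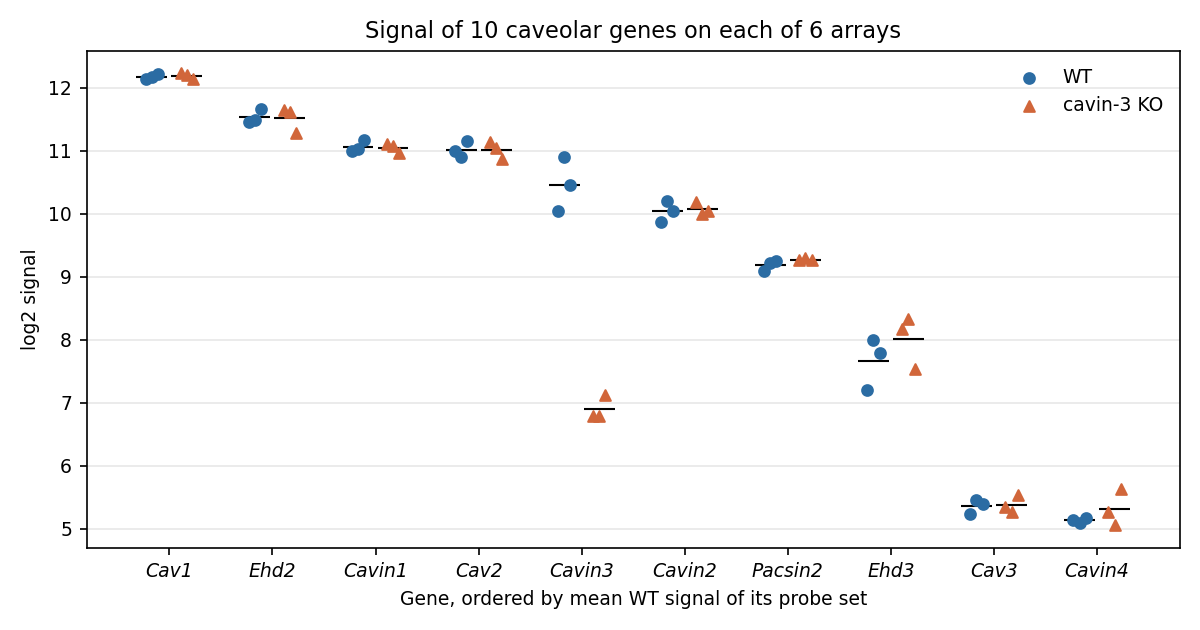
Log2 signal (vertical axis) of the 10 caveolar genes (horizontal axis, by mean WT signal) on each array, with circles for WT, triangles for cavin-3 KO and a line at each mean of 3. Cavin3 fell from 10.46 to 6.90, while the means of the other 9 genes lie close together in WT and KO.

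Within the caveolin family the signal ran from Cav1 over Cav2 to Cav3, and within the cavins from Cavin1 over Cavin3 and Cavin2 to Cavin4. On the KO arrays the mean of Cavin3 moved below those of Cavin2, Pacsin2 and Ehd3, and the order of the other 9 genes by mean signal was as in WT. As a rank within the array, Cavin3 went from the 95.8th to 98.3rd percentile of 19937 genes in WT to the 52.2nd to 58.2nd in KO. Ehd3 had the broadest range among the other genes, from 58.7 to 72.9 in WT and from 65.2 to 78.0 in KO.

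**Figure D2:**
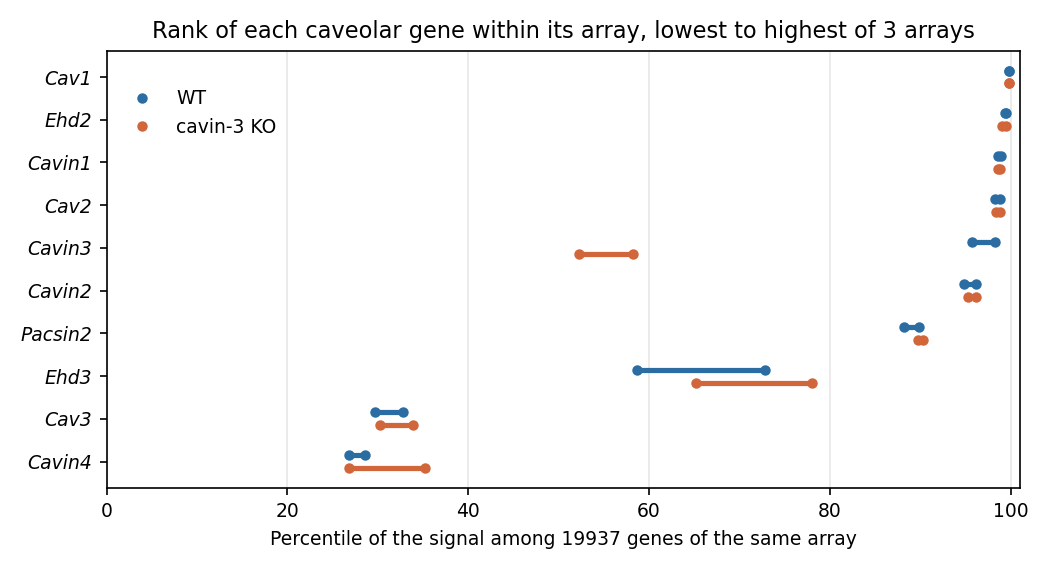
Percentile of the signal of each gene among the 19937 genes of the same array (horizontal axis), drawn from the lowest to the highest of the 3 WT arrays (blue) and the 3 cavin-3 KO arrays (orange). The WT and KO bars of Cavin3 are far apart, at 95.8 to 98.3 and 52.2 to 58.2.

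Cavin3, the targeted gene, fell in KO fat, and the targeted gene thereby matched the genotype labels on all 6 arrays. The WT mice had a mean log2 signal of 10.46 ± 0.43 and the KO mice one of 6.90 ± 0.19 (SD, n = 3 each), with single KO arrays at 6.79, 6.78 and 7.12. The KO signal was 8.43% of that of WT, with a 95% interval of 5.78% to 12.3%. The log2 difference was -3.57 (standard error 0.23, adjusted p = 0.0409 from limma over 34760 probe sets). An exact permutation test of 3 against 3 arrays, two-sided, gave p = 0.10, the smallest it can give. No WT array overlapped a KO array, and the 9 possible KO minus WT differences ran from -4.11 to -2.93. It was the deepest fall of all probe sets. The next deepest was -1.70, and among named genes it was that of Sptssb, a subunit of serine palmitoyltransferase, at -1.58.

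The signal of Cavin3 in KO did not reach that of the dimmest probe sets. It stayed 0.69 to 1.0 above the median of all probe sets, on the log2 scale, on the 3 KO arrays. Where the probes of this set lie relative to the replaced sequence was not analysed here.

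Cavin3 also varied within each genotype, and in both the highest array was the one with high Xist and high skeletal muscle signal. WT replicate 2 exceeded the other WT arrays by 0.45 and 0.85, and KO replicate 3 exceeded the other KO arrays by 0.33. KO replicate 3 was at 7.29% of WT replicate 2, and KO replicates 1 and 2 were at 9.07% of WT replicates 1 and 3. The log2 differences were -3.78 inside this pair and -3.46 outside it. The first rests on 1 array of each genotype and has no spread. The adjusted p from limma was 0.391 without the pair, with 2 arrays left in each group. Without each array in turn the difference stayed between -3.78 and -3.35. The adjusted p was 0.0459 without WT replicate 1, but 0.0722 and 0.509 without WT replicates 2 and 3 and 0.438, 0.324 and 0.361 without KO replicates 1, 2 and 3. In the methods' t-test on log2 values it was 1.0.

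Cavin3 was the 1 gene of the 10 with an adjusted p under 0.05, and also the 1 gene with an unadjusted p under 0.05 from limma. Over all probe sets these shares were 0.00575% and 1.95%. None of the other 9 genes was called in limma or in the methods' t-test, and 0 of the 9 had an unadjusted p under 0.05 in either. Their median log2 difference was 0.03, against 0.00 over all genes, with 6 genes higher and 3 lower in KO. A difference of 0.10 or less in size was found in 7 of the 10 genes, which is near the share of 66.5% over all genes. The 95% intervals say how large a change the arrays leave possible. They stayed within 1.5-fold either way for 8 of the 9 genes, all but Ehd3. For Cav3 and Cavin4, which are among the 8, this holds for dim signals only. Whether those exceed the background could not be judged, so their intervals set no limit on a change of mRNA. The share of all genes with an interval within 1.5-fold was not counted.

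**Figure D3:**
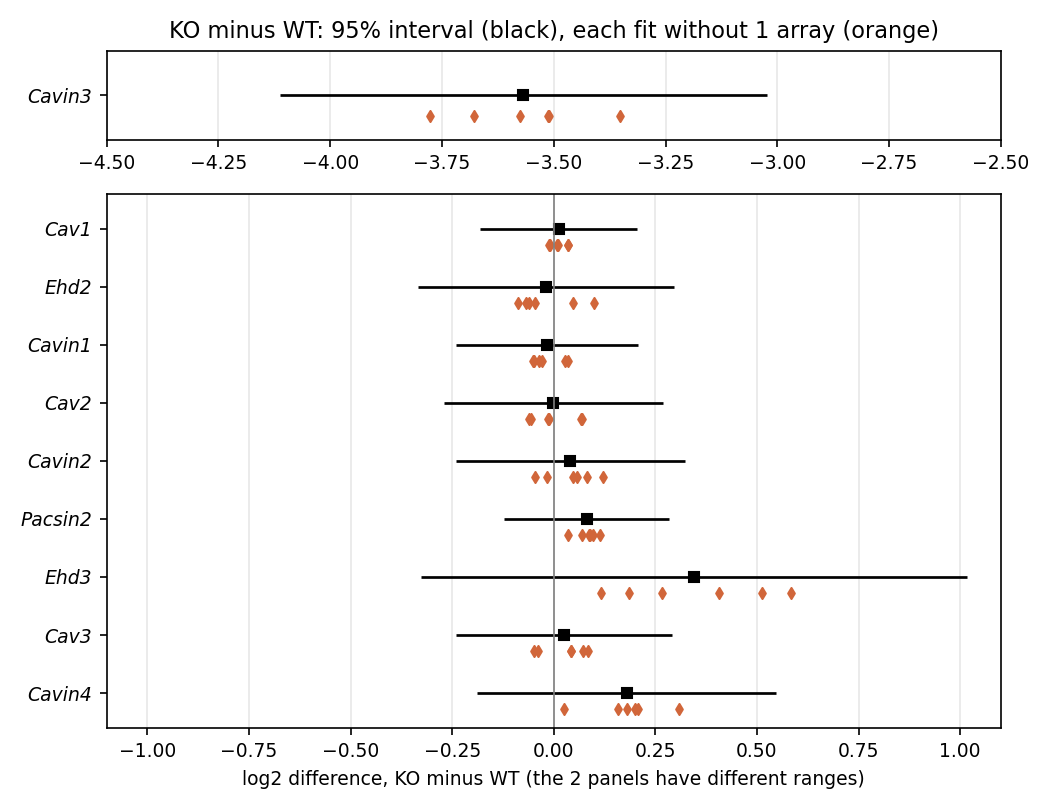
Log2 difference between KO and WT (horizontal axis) for Cavin3 (upper panel) and the other 9 genes (lower panel, another range), with squares at the estimate, black lines for the 95% interval and orange diamonds for each fit that leaves out 1 array. The interval of Cavin3 runs from -4.11 to -3.02, and the intervals of the other 9 genes include 0.

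Among the caveolins, Cav1 had 12.23, 12.20 and 12.14 on the KO arrays, inside or next to its WT range, a fold of 1.01 (95% interval 0.882 to 1.15). Cav2 had 11.14, 11.04 and 10.88, a fold of 0.999 (0.829 to 1.20). Cav3 had 5.35, 5.27 and 5.53, a fold of 1.02 (0.847 to 1.22). For all 3 caveolins the WT and KO values overlapped.

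Of the other cavins, Cavin1, which caveolae need to form, had 11.12, 11.08 and 10.96 in KO, a fold of 0.988 (0.846 to 1.16). Cavin2 had 10.19, 10.00 and 10.05, a fold of 1.03 (0.846 to 1.25). Cavin4 had 5.26, 5.05 and 5.62, a fold of 1.13 (0.878 to 1.46). The high value of Cavin4 was that of KO replicate 3 alone, and the fold was 1.02 without that array. No cavin thus passed a test for a rise in the tissue without Cavin3, and increases above 1.16-fold for Cavin1, 1.25-fold for Cavin2 and 1.46-fold for Cavin4 lay outside the intervals. For Cavin4 this limit applies to a dim signal, whose height over the background could not be judged.

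Among the neck proteins, Ehd2 had 11.65, 11.62 and 11.28 in KO, a fold of 0.987 (0.793 to 1.23). Pacsin2 had 9.26, 9.30 and 9.26, a fold of 1.06 (0.919 to 1.22, unadjusted p = 0.367 and adjusted p = 1.0 from limma). Every KO value of Pacsin2 lay above every WT value, but the gap was 0.01 on the log2 scale. With Cavin3 this made 2 of 10 genes whose groups did not overlap, where 4.61% of all genes did so. The groups of Pacsin2 overlapped when the arrays were quantile-normalized once more or centred on their medians.

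Ehd3 had the widest difference and the widest interval of the other 9 genes. It had 8.17, 8.33 and 7.53 on the KO arrays, against 7.21, 8.0 and 7.79 in WT, a fold of 1.27 (0.798 to 2.02, adjusted p = 1.0 from limma). KO replicate 3 lay below 2 of the WT arrays, and the groups overlapped. The direction depended on the arrays compared. KO replicate 3 was lower than WT replicate 2 by a log2 difference of -0.46, whereas KO replicates 1 and 2 were higher than WT replicates 1 and 3 by 0.75. Without that pair the fold was 1.68 (unadjusted p = 0.0282, adjusted p = 1.0 from limma), and Ehd3 and Cavin3 were then the 2 of 10 genes with an unadjusted p under 0.05. In that fit 2.87% of all probe sets had one. A difference between the pair and the other arrays was not tested. The fold was 1.5 without KO replicate 3 and 1.09 without WT replicate 1.

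The 10 genes differed in how steady they were. The SD within a genotype was 0.05 for Cav1, lower than that of all but 2.90% of the genes measured, and 0.06 for Pacsin2. It was 0.09 for Cavin1, higher than in 18.2% of the genes. It was 0.13 for Cav2 and Cav3, 0.14 for Cavin2 and 0.17 for Ehd2, around the median of 0.14 over all genes. Cavin4 with 0.21, Cavin3 with 0.33 and Ehd3 with 0.41 were more variable. The SDs of Cavin3 and Ehd3 were higher than those of 89.2% and 92.7% of the genes.

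Of the brightest genes, 4 lay on the same side of their means on each array, though at small distances. Cav1, Cav2, Cavin1 and Ehd2 all lay above their own mean over the 6 arrays in WT replicate 3 and in KO replicates 1 and 2, and all lay below it in WT replicates 1 and 2 and in KO replicate 3. The signal of Cav1 minus that of Cavin1 spanned 0.13 over the arrays, and that of Cav2 minus that of Cavin1 spanned 0.14. The other 4 pairs among these genes spanned 0.17 (Cav2 and Ehd2), 0.20 (Cav1 and Cav2), 0.22 (Cavin1 and Ehd2) and 0.30 (Cav1 and Ehd2). Cav1 alone spanned 0.10, less than any of its differences from the other genes, and Cav1 minus Pacsin2, which is outside this pattern, spanned 0.15. The mean difference between Cav1 and Cavin1 was 1.11 ± 0.05 in WT and 1.14 ± 0.04 in KO (SD, n = 3 each). Quantile normalization over arrays acts on all probe sets, and its part in this shared movement was not tested. Cavin2 did not follow this pattern, with its highest value in WT replicate 2. The pattern was not limited to caveolar genes. Lipe, an adipocyte marker gene, had 12.24, 12.34 and 12.21 in WT replicate 3 and KO replicates 1 and 2. It had 12.10, 12.17 and 12.10 in WT replicates 1 and 2 and KO replicate 3. The other adipocyte markers did not share the pattern. The share of all genes with it was not counted.

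These 4 genes are shown with the bases just before their start. A link between these sequences and the shared pattern was not tested. Of the 10 genes, 9 had a start in the RefSeq promoter table (GRCm38.p6), and Cavin3 is named only. The 250 bases before the start are printed 5′ to 3′ on the strand of the gene. Capitals mark a GC box (GGGCGG) or a CCAAT box (CCAAT), each on either strand. Cav1 lies at chr6:17306085-17306334 (+), its first start of 2 in the table. Cav2 lies at chr6:17280935-17281184 (+), so that the starts of Cav2 and Cav1 are 25150 bases apart on the same strand. Cavin1 lies at chr11:100970618-100970867 (-), the first of 2 starts, and Ehd2 at chr7:15967536-15967785 (-).
Cav1: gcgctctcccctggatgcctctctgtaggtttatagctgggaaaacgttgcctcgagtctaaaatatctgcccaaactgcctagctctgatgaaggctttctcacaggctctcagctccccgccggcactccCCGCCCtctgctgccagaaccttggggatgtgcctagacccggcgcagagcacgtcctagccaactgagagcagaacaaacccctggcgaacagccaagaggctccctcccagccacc
Cav2: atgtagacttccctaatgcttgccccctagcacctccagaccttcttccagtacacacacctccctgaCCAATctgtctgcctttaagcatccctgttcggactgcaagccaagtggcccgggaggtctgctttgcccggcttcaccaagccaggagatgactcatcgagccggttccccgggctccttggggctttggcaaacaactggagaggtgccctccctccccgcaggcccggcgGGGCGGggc
Cavin1: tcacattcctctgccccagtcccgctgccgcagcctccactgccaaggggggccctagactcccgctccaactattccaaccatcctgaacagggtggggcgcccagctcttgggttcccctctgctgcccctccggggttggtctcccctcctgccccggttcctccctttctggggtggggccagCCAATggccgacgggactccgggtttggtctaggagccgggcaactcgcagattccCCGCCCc
Ehd2: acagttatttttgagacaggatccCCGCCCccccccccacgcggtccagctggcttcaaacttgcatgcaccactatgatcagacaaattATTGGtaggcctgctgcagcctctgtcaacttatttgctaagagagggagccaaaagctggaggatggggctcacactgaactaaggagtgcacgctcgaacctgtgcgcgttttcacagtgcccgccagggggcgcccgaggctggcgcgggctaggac

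All 4 windows held 1 GC box each, a match that 32.7% of 32851 windows of the same length also held. A CCAAT box was in those of Cav2, Cavin1 and Ehd2, and in 33.8% of all windows. Their GC content was 59.6%, 62.0%, 67.6% and 58.0% in the order printed, against a median of 52.4%. The motifs were not limited to these 4 genes. Of the others, Pacsin2 held 1 GC box and 2 CCAAT boxes in the first of its 3 windows and Cavin2 held 1 CCAAT box, whereas Cav3, Cavin4 and Ehd3 held neither motif. The window of the second Cav1 start held neither as well. The letters TATAAA, held by 12.4% of all windows, matched in those of Cav1 (on the other strand) and Cavin4. The E-box CANNTG, held by 66.2%, matched in those of Cav1, Cav2, Ehd2, Cav3 and Cavin4 and not in those of Cavin1, Cavin2 and Ehd3. A match is a description of the letters and says nothing of what binds there.

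The muscle forms were also set beside the skeletal muscle genes, since those moved by array. All 12 skeletal muscle genes, among them the creatine kinase gene Ckm and the myosin gene Myh4, had their highest signals on the arrays of WT replicate 2 and KO replicate 3. Cav3 was highest on the same pair, but only by a small step: 5.45 and 5.53, against 5.23 to 5.39. Cavin4 was highest in KO replicate 3 (5.62) and had 5.09 in WT replicate 2, below WT replicates 1 and 3.

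Ehd3 and Cavin3 were the genes of this set that spanned over 1 on the log2 scale. The 3 genes with profiles most like that of Ehd3 over the 6 arrays were Fam20c, a secretory pathway kinase, Dusp9, a MAP kinase phosphatase, and Orm3, an orosomucoid. Their root mean square differences from Ehd3, after centring, were 0.10, 0.12 and 0.12, and each had its lowest values in WT replicate 1 and KO replicate 3. Fam20c had 7.69, 8.30 and 8.04 in WT and 8.46, 8.53 and 7.69 in KO. No gene came near the profile of Cavin3. The closest was Igkv10-96, an immunoglobulin segment, at a root mean square difference of 1.42. This measure counts the size of changes, and the next deepest fall of any probe set was -1.70. It therefore could not show a profile of like shape and smaller size.

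**Figure D4:**
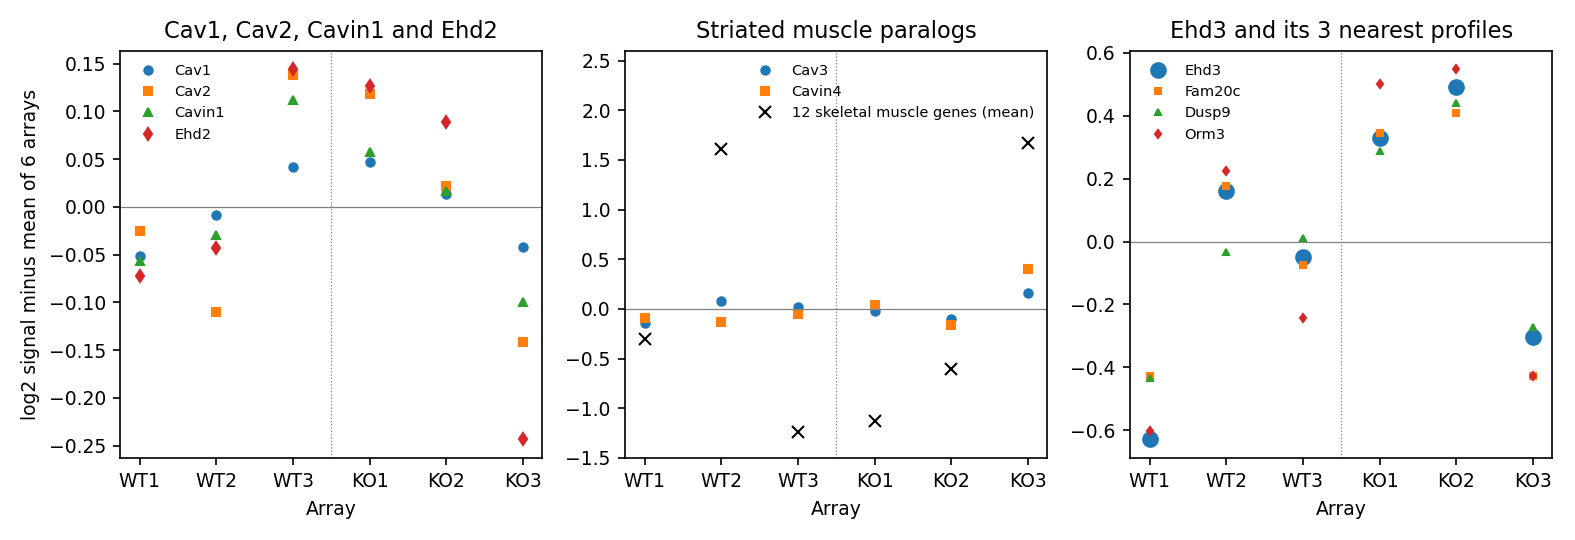
Log2 signal minus the mean over the 6 arrays (vertical axis, a different range in each panel) on each array (horizontal axis, WT1 to KO3 are the replicates, with WT left of the dotted line). Left, Cav1, Cav2, Cavin1 and Ehd2, all above 0 on WT3, KO1 and KO2. Middle, Cav3 and Cavin4 beside the mean of 12 skeletal muscle genes, which is high on WT2 and KO3. Right, Ehd3 with Fam20c, Dusp9 and Orm3, all lowest on WT1 and KO3.

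Genes that act at caveolae, or in membrane domains related to them, were read from 5 lists. Of the 30 measured, 15 were higher and 15 lower in KO, and the median log2 difference was 0.00, as over all genes. None passed an adjusted p of 0.05 from limma or in the methods' t-test, and 0 had an unadjusted p under 0.05 in either, where limma gave one to 1.95% of all probe sets. The differences ran from -0.22 to 0.21, and the intervals of 26 of the 30 stayed within 1.5-fold. The exceptions were Bves, Prkca, Per2 and Flna, and the share of all genes within that bound was not counted. Bves, a Popeye domain protein of muscle, ran from 4.68 to 7.84 over the arrays, and its fold of 0.893 had an interval of 0.186 to 4.28. Bves was highest in WT replicate 1 (7.84) and KO replicate 2 (7.32), the arrays with the highest smooth muscle signal. The part of that tissue was not tested.

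In the list of neck paralogs and dynamins (4 higher and 3 lower, median 0.01), Dnm2, the ubiquitous dynamin that cuts vesicle necks, was at 1.05-fold (0.893 to 1.22). Dnm3, a dynamin of neurons and testis, was at 1.1-fold, and Pacsin1, the neuronal pacsin, at 0.936-fold. Among membrane proteins tied to caveolae (6 higher and 3 lower, median 0.03), the HDL receptor gene Scarb1 was at 1.02-fold, the insulin receptor gene Insr at 1.04-fold (0.754 to 1.44) and Nos3, the endothelial nitric oxide synthase, at 0.966-fold. Among genes of proteins that bind cavins (2 higher and 2 lower, median -0.03), Prkcd, the protein kinase C delta for which Cavin3 was first named, was at 0.952-fold (0.718 to 1.26). Prkca was at 0.856-fold (0.641 to 1.15), with 7.97, 7.74 and 7.68 in WT and 7.62, 7.86 and 7.25 in KO. Per2, a clock gene, was at 1.16-fold (0.768 to 1.75). In each genotype, Prkca and Prkcd were highest on the array with the highest smooth muscle signal, WT replicate 1 and KO replicate 2. Per2 and Myo1c were not, and the part of that tissue was not tested.

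All 5 genes of phosphorylation and actin linkage were lower in KO, by little (median -0.04). Flna, the filamin that ties caveolae to actin, was at 0.871-fold (0.584 to 1.3), the kinase gene Abl1 at 0.922-fold and Rhoa at 0.977-fold. Flna was highest in WT replicate 1 (11.14) and KO replicate 2 (10.99), the arrays with the highest smooth muscle signal. In each genotype Src and Abl1 were also highest on these arrays, and Fyn and Rhoa were not. The part of that tissue was not tested. The flotillins and related proteins, which mark membrane domains other than caveolae, had a median of 0.03 (3 higher and 2 lower), with Flot2 at 0.927-fold, Erlin2 at 1.06-fold and Erlin1 at 1.02-fold.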

How the data were processed

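Total RNA of adipose tissue was amplified, labelled with biotin and hybridised to Mouse Gene 1.0 ST arrays. The authors deposited 1 linear intensity for each probe set and array. RMA is named, without a version, in the processing notes of the submitters. The sources used here do not give the build behind the probes. After a log2 step, the genotypes were compared in R 4.3.3 with limma 3.58.1 (lmFit, eBayes), without covariates and with Benjamini-Hochberg adjustment over 34760 probe sets. The fit was tested on simulated data. Genes were named from 21640 probe sets annotated with 1 symbol, by the probe set with the highest mean. Of these, 21553 matched the RefSeq table (GRCm38.p6) by gene ID, with 0 changes of symbol. The members and lists were chosen with earlier results of these data known. All members were named, in each list the 3 genes with the smallest unadjusted p and any past the adjusted p of 0.05, and, for members spanning over 1 on the log2 scale, the 3 nearest centred profiles. Sptssb, Src, Fyn, Myo1c and further markers were chosen after their values were seen. 1 listed pathway gene is not reported here, and Ddx3y was not analysed here. P-values from limma set a mean difference against the spread between these mice, with each variance drawn toward those of the other probe sets. Alternatives were the study's Student test (the methods' t-test), renormalization, centring, filters, variance models, weights, a block, and leaving out arrays.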

Additional observations from a re-analysis of the deposited data

How the results depend on the processing

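Under 17 alternatives the log2 difference of Cavin3 ran from -3.78 to -3.35, past an adjusted p of 0.05 in 8. It was lost, with 0 of 10 genes called, in the methods' t-test (-3.57 on log2 values and -3.60 on linear values, both with an adjusted p of 1.0) and without both arrays with high Xist (-3.46, 0.391). A replicate block also lost it (-3.57, adjusted p = 0.681, 0 called) and changed no other call, but same-numbered arrays did not deviate together (correlations of -0.15, -0.37 and -0.09 for numbers 1, 2 and 3), so the numbers were not taken as pairs. Every array correlated best with one of another number, WT1 with KO2 (0.52), WT2 with KO3 (0.48) and WT3 with KO1 (0.37), which no label ties together. Leaving out 1 array gave -3.78 to -3.35 and 0 to 1 genes called. Without adjustment, the methods' t-test gave Cavin3 a p of 0.000187 on log2 values and of 0.00566 on linear values. Why calls were lost was not tested. The fits with fewer arrays have fewer samples.

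No other gene was called among 151 values under alternatives, and 1 had an unadjusted p under 0.05. That was Ehd3 without the pair, which made 2 genes. Genes without overlap between groups numbered 1 instead of 2 after quantile normalization once more or median centring (4.81% and 4.09% of all genes). They numbered 2 to 3 without 1 array, against 9.93% to 15.1% of all genes, and 3 of 10 without the pair, near the 28.2% of all genes. Differences near 0 changed sign. Cav2 was at 0.0051 after quantile normalization, and Cav3 at -0.0265 with array weights. Without the pair, Cav2 was at 0.0136, Cav3 at -0.0032, Cavin1 at 0.0097 and Ehd2 at 0.0717, while Cav1 kept its sign at 0.0346, Cavin2 at 0.1366, Cavin4 at 0.0027 and Pacsin2 at 0.1035. Leaving out 1 array, Cav1 ran from -0.0105 to 0.0361, Cav2 from -0.0609 to 0.069, Cav3 from -0.0496 to 0.0832, Cavin1 from -0.05 to 0.0348, Cavin2 from -0.047 to 0.1202 and Ehd2 from -0.0869 to 0.0982. The filter on dim probe sets removed Cav3 and Cavin4. Signal over background limits both and could not be judged here.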
